A study of Mus musculus with 16 samples.

Results

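Complex I (NADH:ubiquinone oxidoreductase) was described here through the genes whose symbol starts with Nduf followed by a, b, c, s or v. The pattern found 44 of the 16882 genes listed in both tissues' tables, and every one of the 44 was listed in both. They fell into 35 subunits, 7 assembly factors (Ndufaf1 to Ndufaf7) and 2 genes that carry the name only. Those 2 are Ndufa4, whose protein is now counted with cytochrome c oxidase (complex IV), and Ndufa4l2, its hypoxia-induced paralogue. The subunits comprised 7 core subunits, 9 accessory subunits of the matrix arm, 18 accessory subunits of the membrane arm and Ndufab1, an acyl carrier protein found in both arms. The mitochondrially encoded ND subunits, Ndufs5 and Ndufb1 were not analysed here.

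Complex I takes electrons from NADH made in the mitochondrial matrix, passes them along a flavin and a chain of iron-sulfur clusters to ubiquinone, and pumps protons across the inner membrane as it does so. Its core subunits carry the electron path and the pumps, the accessory subunits surround and stabilise them, and assembly factors help build the enzyme without staying in it. Brown fat and muscle are both rich in mitochondria, and PGC-1alpha is a coactivator known to act on many genes of the respiratory chain.

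The mice carried the uORF-TAA allele of Ppargc1a, the gene of PGC-1alpha, on both chromosomes, or were their wild-type littermates. The name denotes an upstream open reading frame and the stop codon TAA. All were males of the C57BL/6 strain, 10 weeks old and housed at room temperature. Quadriceps muscle and brown adipose tissue were sequenced whole, with 4 uORF-TAA and 4 wild-type libraries per tissue and 16 in all. In whole tissue, fewer cells of a type and less RNA per cell cannot be told apart.

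Depth per library was not listed and was estimated, as an inferred scaling factor of each library times the summed mean normalized count. That takes the normalized total to be the same in every library. The estimates, in M counts (M, mega), ran from 11.01 to 17.8 M in brown fat (median 11.7 M) and from 11.4 to 31.8 M in quadriceps (median 22.0 M). The defining markers fitted the tissue labels. Ucp1, the uncoupling protein of brown adipocytes, had a mean normalized count of 47561 in the brown fat table and 6.70 in the quadriceps table. Acta1, the skeletal muscle actin, had 19686 in the brown fat table and 382506 in the quadriceps table. A list of 12 muscle fibre genes held 1.22% of the summed mean counts in brown fat. Ppargc1a itself had a log2 fold change (uORF-TAA over wild type) of 0.0016 ± 0.11 (SE) in brown fat and 0.058 ± 0.13 in quadriceps in the authors' deposited tables. Fold changes run in that direction throughout. The numerator is not stated in the tables and was taken to be the genotype that each one names first, and if that is wrong for a tissue, every sign given for that tissue turns over.

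No complex I gene passed the test in either tissue. The question was whether the genes of the enzyme differed in mRNA between uORF-TAA mice and wild-type littermates. In brown fat 0 of 44 members had an adjusted p under 0.05 (DESeq2's Wald test, Benjamini-Hochberg, as deposited by the authors), against 0.0863% of all genes with an adjusted p. In quadriceps 0 of 44 did, against 0.0% of all genes. At an unadjusted p under 0.05 there were also 0 members in each tissue, against 2.07% of all genes tested in brown fat and 2.0% in quadriceps. By direction, the background was 0.918% higher and 1.15% lower in uORF-TAA mice for brown fat, and 0.942% higher and 1.06% lower for quadriceps. In the authors' deposited tables the smallest member p was 0.243 in brown fat, for Ndufs8, and 0.127 in quadriceps, for Ndufa3, and the adjusted p of each member was 1.00. The statistic (fold change over its standard error) lay within 1 of 0 for 39 of 44 members in brown fat and 40 of 44 in quadriceps, against 82.4% of all genes tested in brown fat and 80.4% in quadriceps.

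The intervals give the range of each estimate on the deposited scale, which behaves as a shrunken one and understates large changes. Over the 35 subunits, the 95% intervals in brown fat ran from -0.26 at the lowest, for Ndufb2, to 0.32 at the highest, for Ndufs7, which are 0.837-fold and 1.25-fold. In quadriceps they ran from -0.34, for Ndufa12, to 0.38, for Ndufc2, which are 0.789-fold and 1.30-fold. The assembly factors reached further at the upper end, to 0.36 for Ndufaf6 in brown fat and 0.39 for Ndufaf3 in quadriceps, and Ndufaf2 reached -0.28 in brown fat. The standard errors of the subunits were narrow in range, from 0.088 to 0.12 in brown fat and from 0.078 to 0.13 in quadriceps. An unadjusted p of 0.05 needed a log2 fold change of 0.20 in brown fat and 0.21 in quadriceps at the members' median standard error. Over single members it needed 0.17 (Ndufb3) to 0.24 (Ndufa4l2) in brown fat and 0.15 (Ndufb9) to 0.26 (Ndufa4l2) in quadriceps. In brown fat the weakest statistic that passed the adjusted test among all genes was 4.18 in size, which for the median member would be a log2 fold change of 0.43.

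**Figure D1:**
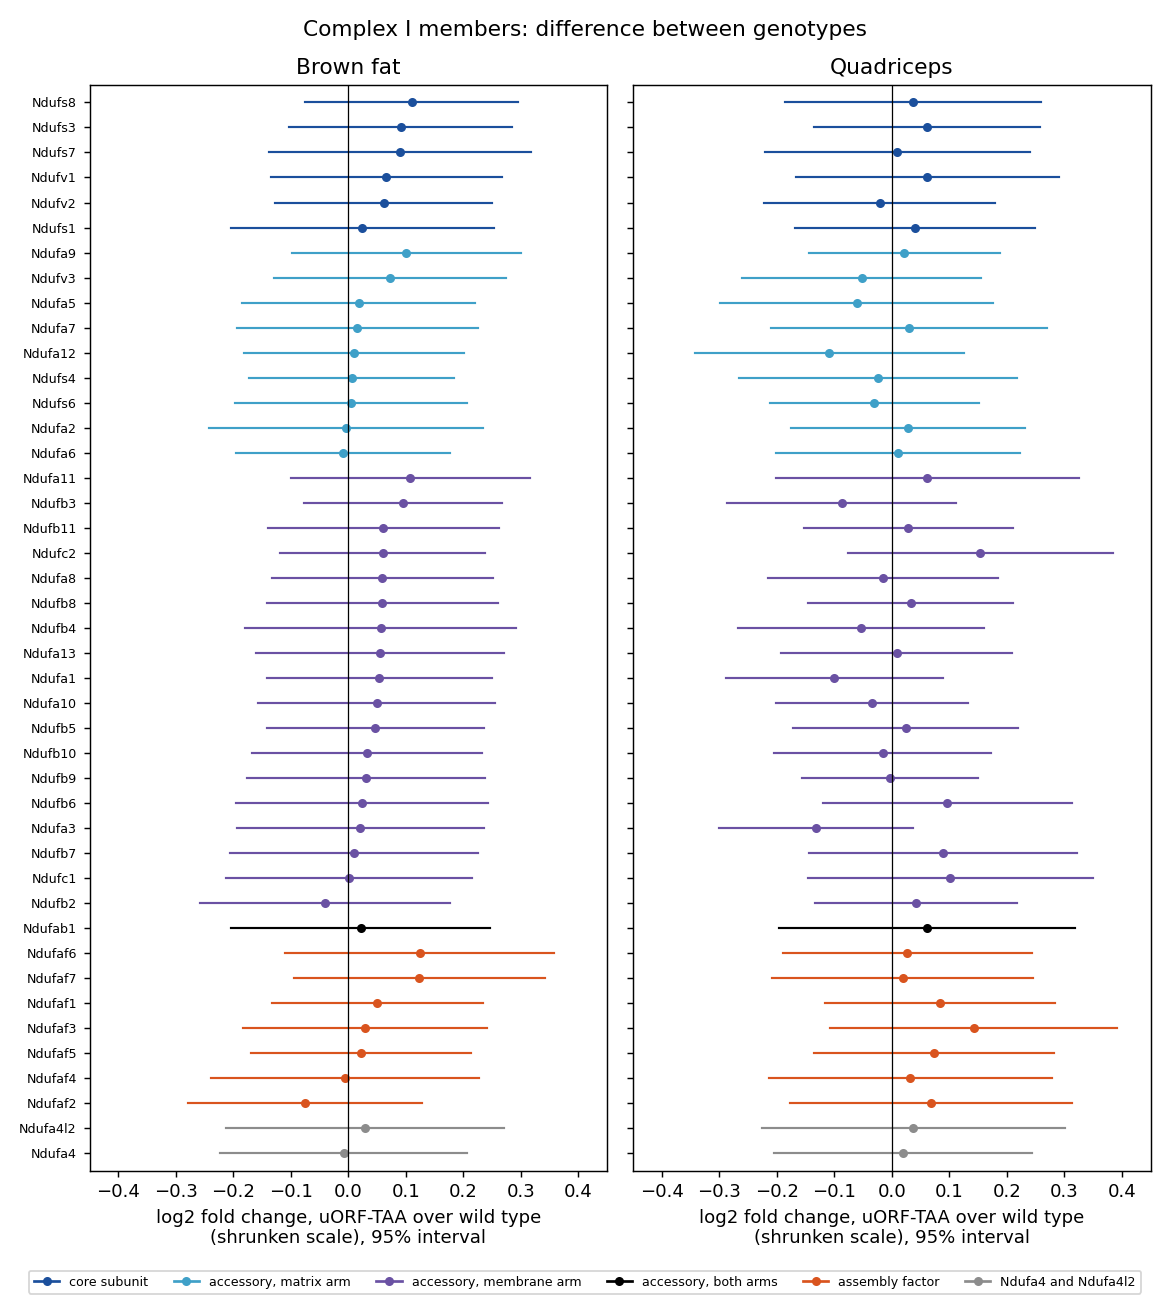
Log2 fold change (uORF-TAA over wild type, shrunken scale) of 43 members in brown fat (left) and quadriceps (right). Points are the deposited estimates and bars their 95% intervals, coloured by class. Every bar crosses 0, and in brown fat the points of 31 of the 34 subunits plotted lie right of 0, against 20 of 34 in quadriceps.

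Among the core subunits, which hold the flavin, the iron-sulfur clusters and the quinone pocket, all 7 estimates were above 0 in brown fat and 5 of 7 in quadriceps. None passed the test in either tissue. Ndufs8, which carries iron-sulfur clusters next to the quinone site, had the highest subunit estimate in brown fat, 0.11 ± 0.095 (SE) with a p of 0.243 in the authors' deposited table. In quadriceps the authors' deposited table gave Ndufs8 0.037 ± 0.11. Ndufv1, which binds NADH and the flavin, had 0.066 ± 0.10 in brown fat and 0.062 ± 0.12 in quadriceps. Ndufs1, the largest core subunit of the matrix arm, had 0.024 ± 0.12 in brown fat and 0.040 ± 0.11 in quadriceps in the authors' deposited tables. Ndufs3, Ndufs7 and Ndufv2 lay between 0.062 and 0.091 in brown fat and between -0.021 and 0.061 in quadriceps. The core median was 0.076 in brown fat and 0.037 in quadriceps.

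The 9 accessory subunits of the matrix arm sat closest to 0 in brown fat, with a median of 0.0099, 7 above 0 and 2 below. Ndufa9, a nucleotide-binding subunit beside the quinone pocket, was the highest of them at 0.10 ± 0.10, with a p of 0.322 in the authors' deposited table for brown fat. Ndufa6 and Ndufa2 were the 2 below 0, at -0.0095 and -0.0044. In quadriceps 4 of these 9 were above 0 and 5 below, with a median of -0.024. The lowest there was Ndufa12, which docks late on the matrix arm, at -0.11 ± 0.12 with a p of 0.362 in the authors' deposited table. Ndufs4, whose loss in mice models Leigh syndrome, had 0.0061 ± 0.091 in brown fat and -0.024 ± 0.12 in quadriceps in the authors' deposited tables. Ndufab1, of both arms, had 0.022 ± 0.11 in brown fat and 0.061 ± 0.13 in quadriceps.

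The 18 accessory subunits of the membrane arm held both ends of the quadriceps range. Ndufc2 was the highest subunit there, at 0.15 ± 0.12 with a p of 0.189 in the authors' deposited table. Ndufa3 was the lowest, at -0.13 ± 0.086 with a p of 0.127. Ndufa1, a small membrane-spanning subunit, followed at -0.10 ± 0.096 with a p of 0.301 in the authors' deposited table for quadriceps. The group was split in quadriceps, with 10 above 0 and 8 below and a median of 0.016. In brown fat 17 of the 18 were above 0 and the median was 0.052. Ndufb3 had 0.095 ± 0.088 there with a p of 0.279, and Ndufa11, which lies on the flank of the membrane arm, had 0.11 ± 0.11 with a p of 0.309 in the authors' deposited table. Ndufb2 was the lone member of this group below 0 in brown fat, at -0.040 ± 0.11.

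Taking the 35 subunits as 1 list, 32 estimates were above 0 in brown fat, which is 91.4%, against 51.2% of all genes tested and 56.1% of the genes with a mean normalized count of at least 1000. The subunit median was 0.049, against 0.0015 for all genes tested and 0.0092 for the genes with that mean count. With a smooth trend of fold change on mean count removed, 29 of 35 stayed above 0 and the median was 0.031. In quadriceps 20 of 35 were above 0, or 57.1%, against 51.7% of all genes tested and 43.5% of the abundant ones. The quadriceps median was 0.012, against 0.0024 for all genes and -0.013 for the abundant ones. These counts describe estimates that each missed the test, and the subunits share libraries and normalization, so they are not independent observations.

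Most of the adipocyte markers listed lay above 0 in the same brown fat libraries, and also in quadriceps. Of all genes tested, 51.2% were above 0 in brown fat and 51.7% in quadriceps. Of 12 general adipocyte markers, 10 were above 0 in brown fat, with a median of 0.11, and the list held 4.21% of the summed mean counts. The lowest of the 12 was at -0.107, and 0 had an unadjusted p under 0.05. Cebpa, an adipocyte transcription factor, had 0.23 ± 0.12 with a p of 0.0608, and Lipe, the hormone-sensitive lipase, 0.17 ± 0.092 with a p of 0.0673 in the authors' deposited table. All 7 brown adipocyte markers were above 0, with a median of 0.077. Dio2, the enzyme that activates thyroid hormone, had the smallest p of that list, 0.48 ± 0.12 by the authors' deposited table, where its adjusted p was 0.0990. Ucp1 had 0.077 ± 0.13. Cox7a1 and Cox8b are in both that list and the list of complexes II to V. Muscle fibre markers lay close to 0 in brown fat, from -0.029 to 0.0066, with 11 of 12 below 0 and a median of -0.0089. Their smallest p was 0.587 in the authors' deposited table. Their median standard error, 0.068, was the smallest of the lists with values in brown fat. On the shrunken scale, estimates near 0 do not show that muscle content was equal between genotypes, which was not tested. Nerve glia markers were below 0 in 6 of 6 cases in brown fat (median -0.17) and in 6 of 6 in quadriceps (median -0.19). Mural cell markers were below 0 in 5 of 6 cases in quadriceps (median -0.19, 3 at an unadjusted p under 0.05), and above 0 in 4 of 6 in brown fat (median 0.091). In brown fat, macrophage markers had a median of -0.097 (2 of 5 above 0), fibroblast markers 0.081 (4 of 6) and endothelial markers 0.036 (5 of 6, with 1 at an unadjusted p under 0.05). Alas2, the measured erythroid marker, had 0.34 ± 0.13 with a p of 0.00840 in brown fat in the authors' deposited table. In quadriceps the median was -0.023 for macrophage, 0.016 for fibroblast and -0.0017 for endothelial markers. Of the 12 general adipocyte markers, 10 were above 0 in quadriceps too (median 0.064), where the list held 0.206% of the summed mean counts. Brown adipocyte markers had 5 of 7 above 0 there (median 0.0074), and muscle fibre markers 6 of 12 (median -0.00076). Levels of these lists by genotype group were not analysed here, and their part in the subunit values was not tested.

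**Figure D2:**
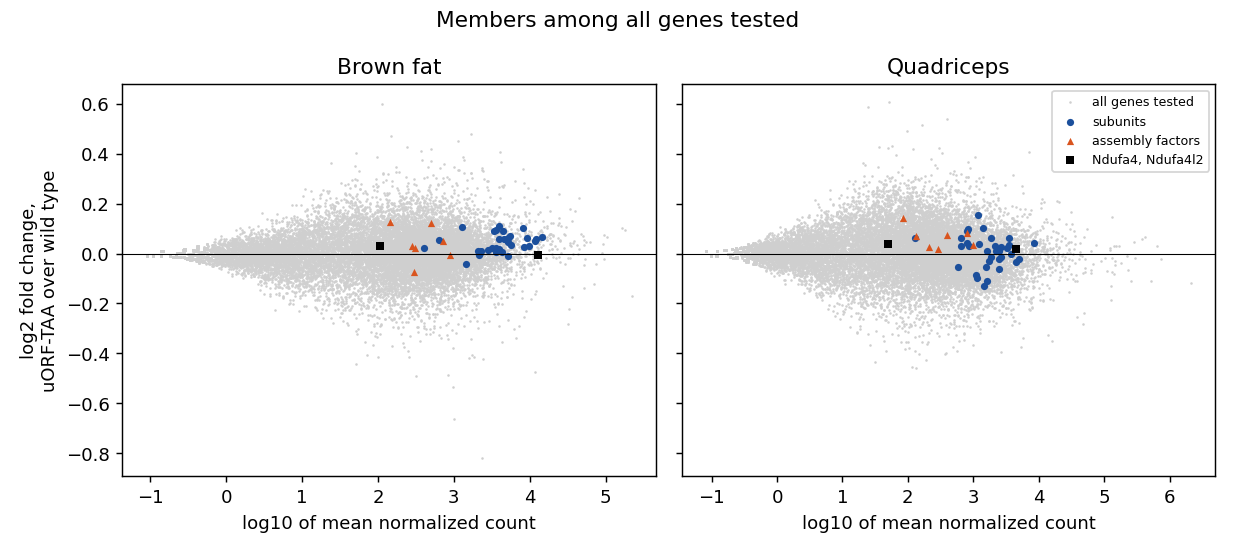
Log2 fold change (uORF-TAA over wild type) against the log10 of the mean normalized count, for all genes tested (grey), subunits (blue), assembly factors (orange) and Ndufa4 with Ndufa4l2 (black), in brown fat (left) and quadriceps (right). Subunits sit at high mean counts and within 0.16 of 0 on the log2 scale in both tissues.

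The assembly factors were read apart from the subunits. All 7 estimates were above 0 in quadriceps, with a median of 0.068, and 5 of 7 in brown fat, with a median of 0.029. Of all genes tested, 51.7% were above 0 in quadriceps (median 0.0024) and 51.2% in brown fat (median 0.0015). None of the 7 passed the test, and like the subunits they share libraries and normalization, so they are not independent observations. Ndufaf3, which binds the early quinone module with Ndufaf4, was the highest in quadriceps, at 0.14 ± 0.13 with a p of 0.262 in the authors' deposited table. It had 0.029 ± 0.11 in brown fat. Its partner Ndufaf4 had 0.032 ± 0.13 in quadriceps and -0.0062 ± 0.12 in brown fat in the authors' deposited tables. Ndufaf1, of the membrane-arm assembly complex that also holds Ecsit, Acad9 and Tmem126b, had 0.084 ± 0.10 in quadriceps and 0.050 ± 0.094 in brown fat.

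Ndufaf2, a paralogue of Ndufa12 that leaves the complex when Ndufa12 docks, had 0.068 ± 0.12 in quadriceps and -0.075 ± 0.10 in brown fat in the authors' deposited tables. It was the lowest assembly factor in brown fat, and its p there was 0.469. Ndufaf5, which hydroxylates an arginine of Ndufs7, had 0.074 ± 0.11 in quadriceps and 0.022 ± 0.098 in brown fat in the authors' deposited tables. Ndufaf7, a methyltransferase, had 0.019 ± 0.12 in quadriceps and 0.12 ± 0.11 in brown fat, with a brown fat p of 0.267. Ndufaf6 had 0.027 ± 0.11 in quadriceps and 0.12 ± 0.12 in brown fat, with a brown fat p of 0.297 in the authors' deposited table. The 2 highest in quadriceps, Ndufaf3 and Ndufaf1, were not the 2 highest in brown fat, Ndufaf6 and Ndufaf7, and the gaps between them were within their standard errors. Ndufaf8, listed under the older symbol 1810043H04Rik and so outside the pattern, had 0.080 ± 0.13 in quadriceps and 0.078 ± 0.12 in brown fat in the authors' deposited tables.

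Assembly factors with other names did not pass the test either. Of 12 measured, 7 were above 0 and 5 below in quadriceps (median 0.017), and 9 above and 3 below in brown fat (median 0.032), with 0 at an unadjusted p under 0.05 in either tissue. Tmem70, needed for complex I and ATP synthase assembly, had the smallest p in quadriceps, 0.20 ± 0.11 with a p of 0.0715 in the authors' deposited table. Acad9, an acyl-CoA dehydrogenase that also serves as an assembly factor, had 0.15 ± 0.096 there, and Foxred1, an oxidoreductase, had 0.10 ± 0.12. In brown fat Foxred1 had the smallest p of these, 0.10 ± 0.12 with a p of 0.376 in the authors' deposited table.

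The 2 genes that carry the name only did not pass the test. Ndufa4 had -0.0076 ± 0.11 in brown fat and 0.020 ± 0.11 in quadriceps in the authors' deposited tables. Ndufa4l2 had 0.029 ± 0.12 in brown fat and 0.038 ± 0.13 in quadriceps.

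The difference of the genotype effect between tissues was tested gene by gene, as the quadriceps log2 fold change minus that of brown fat, divided by the standard error of that difference. Of the 44 members 0 differed at an adjusted p under 0.05, against 0.0% of the 16844 genes tested, and 0 at an unadjusted p under 0.05, against 1.16%. Ndufb3 came nearest, with -0.087 in quadriceps and 0.095 in brown fat, a difference of -0.18 ± 0.13 (SE) and a p of 0.175. Ndufaf2 stood at the other end, with 0.068 in quadriceps and -0.075 in brown fat, a difference of 0.14 ± 0.16 and a p of 0.377. These depend on the assumed brown fat sign: with that sign as deposited, Ndufc2 came nearest, with 0.15 in quadriceps and -0.060 in brown fat, a difference of 0.21 ± 0.15 and a p of 0.149. Of the 35 subunits 17 were above 0 in both tissues, 3 were above 0 in quadriceps and below in brown fat, 15 were below 0 in quadriceps and above in brown fat, and 0 were below 0 in both. With the brown fat sign as deposited, 3 were above 0 in both, 17 were above 0 in quadriceps and below in brown fat, 0 were below 0 in quadriceps and above in brown fat, and 15 were below 0 in both. Such joint counts were not made over all genes, so they have no background here and show no pattern particular to the subunits. The median difference was -0.034 for subunits and 0.039 for assembly factors.

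By share of counts, the subunits stood higher in brown fat than in quadriceps, and the assembly factors did so less at the median. Each table was normalized on its own, so levels between tissues were set side by side as shares of the summed mean counts, with no test. The 35 subunits held 1.45% of the summed mean counts in brown fat and 0.398% in quadriceps, and the 7 assembly factors held 0.0246% in brown fat and 0.0138% in quadriceps. Muscle fibre genes held 22.7% of the quadriceps counts, which lowers the share of every other gene there. The share of each member was higher in brown fat than in quadriceps for all 44. How many of all genes had a higher share there was not counted, so the 44 of 44 has no background here and shows nothing particular to the members. Over all genes tested, the median mean normalized count was 122 in brown fat and 87.7 in quadriceps. The summed mean counts were 12.8 M in brown fat and 21.0 M in quadriceps, so the share of the median gene was also higher in brown fat. The subunit ratio of brown fat over quadriceps had a median of 3.95, from 1.62 for Ndufs1 to 7.06 for Ndufa1. The assembly factor ratio had a median of 1.48, from 1.14 for Ndufaf6 to 5.37 for Ndufaf3. Without the scaling to shares, the ratio of mean normalized counts had a median of 2.41 for subunits and 0.904 for assembly factors.

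**Figure D3:**
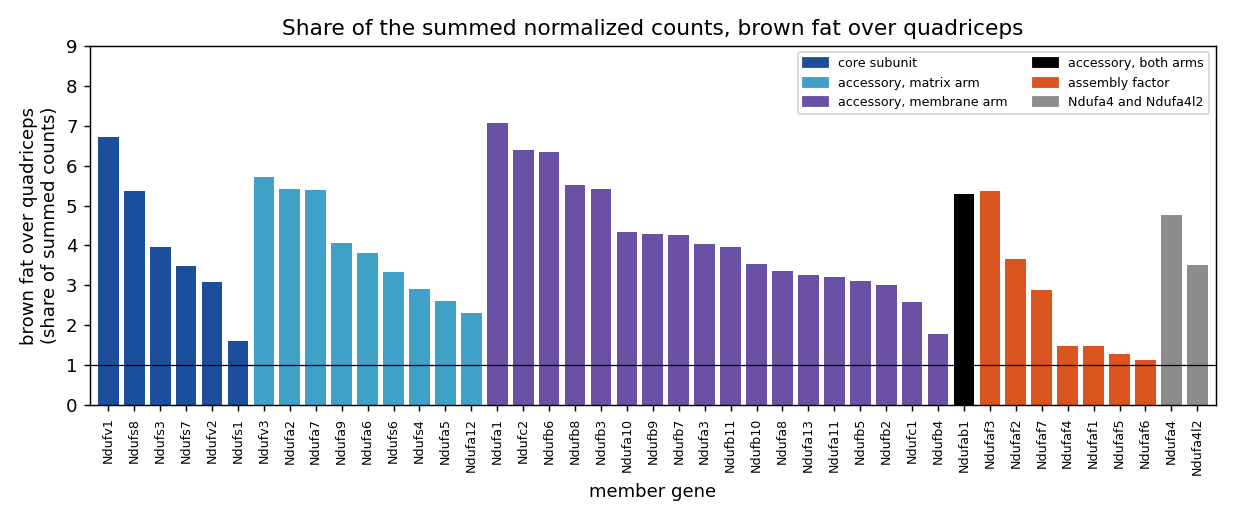
Share of the summed mean normalized counts in brown fat divided by the share in quadriceps, for 43 members, ordered within classes. The line marks a ratio of 1. All bars exceed 1, and 4 of the 7 assembly factors lie below every subunit.

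Core and accessory subunits overlapped on this ratio, whose medians were 3.49 for the core, 3.81 for the accessory matrix arm and 4.01 for the accessory membrane arm. Within the core the ratio ran from 1.62 for Ndufs1 to 6.72 for Ndufv1, although both proteins sit in the same NADH-oxidising module. Ndufs1 had a mean normalized count of 8479 in brown fat and 8604 in quadriceps in the authors' deposited tables. Ndufv1 had 14406 in brown fat and 3518 in quadriceps. Set against the other complexes, the subunit counts were 35.7% of those of 41 nuclear genes of complexes II to V in brown fat and 40.03% in quadriceps.

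Levels per kb of transcript differed widely among subunits, whose proteins are present in equal numbers in the enzyme apart from Ndufab1. In brown fat the highest mean normalized counts per kb were 17545 for Ndufb8, 13859 for Ndufb9 and 11808 for Ndufa1. The lowest were 288 for Ndufab1, 647 for Ndufb4 and 1792 for Ndufc1. In quadriceps the highest among the subunits that may be reported singly here were Ndufb9 with 5301 per kb, Ndufb8 with 5219 and Ndufa6 with 3720. These 3 are not the top 3 of all 35. The lowest there were 89.3 for Ndufab1, 593 for Ndufb4 and 1120 for Ndufa2. Spearman's rho of the per-kb levels between the tissues was 0.763 over the 35 subunits, given as a description, since both axes share transcript lengths. By mean normalized count, the 5 most abundant subunits held 35.6% of all subunit counts in brown fat and 39.7% in quadriceps.

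Assembly factors were far less abundant than the subunits they help to join. Their median count per kb was 5.56% of the subunit median in brown fat and 9.41% in quadriceps, and with coding length in place of transcript length it was 5.09% in brown fat and 6.81% in quadriceps. None reached a mean normalized count of 1000 in either tissue, whereas 33 of 35 subunits did in brown fat and 27 of 35 in quadriceps. The most abundant per kb was Ndufaf1, at 555 in brown fat and 620 in quadriceps. By the transcript chosen, Ndufab1 was the only subunit below Ndufaf1 in brown fat, and Ndufab1 and Ndufb4 were the 2 below it in quadriceps. With the longest principal transcript, Ndufb2 also fell below Ndufaf1, at 334 in brown fat and 182 in quadriceps. By coding length, 2 subunits in brown fat and 4 in quadriceps were below the highest assembly factor, which was then Ndufaf4. Among the assembly factors the least abundant by mean normalized count was Ndufaf6 in brown fat (144) and Ndufaf3 in quadriceps (84.7). Ndufa4 exceeded every subunit per kb, at 21153 in brown fat and 7279 in quadriceps, and Ndufa4l2 was the lowest of all 44, at 114 in brown fat and 53.6 in quadriceps.

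**Figure D4:**
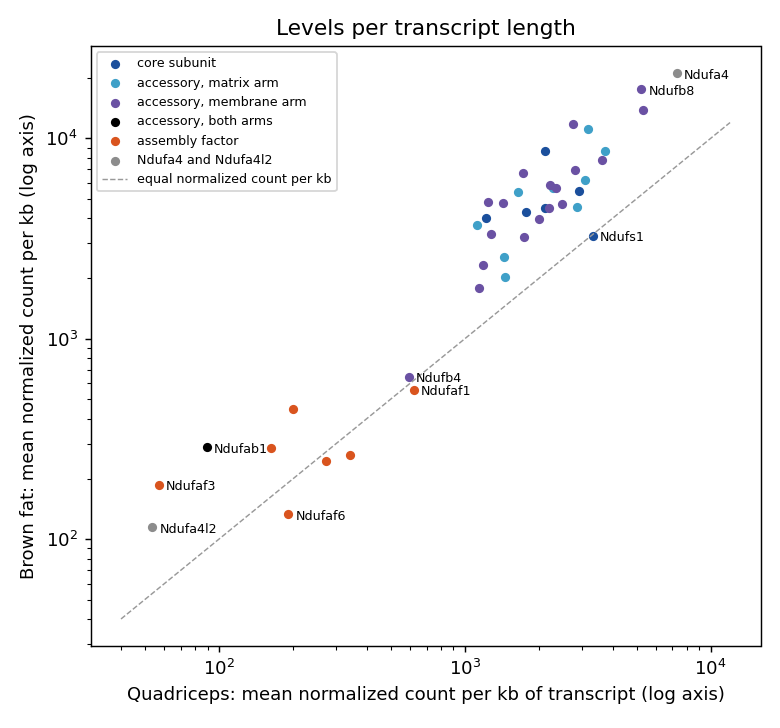
Mean normalized count per kb of transcript in brown fat (vertical, log axis) against quadriceps (horizontal, log axis), 1 point for each of 43 members, coloured by class. With the transcript length used, assembly factors, Ndufab1 and Ndufa4l2 form the low group, Ndufb4 lies beside Ndufaf1, and the other subunits lie above 1000 in both tissues.

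By the transcript chosen, the 2 lowest subunits per kb were also the 2 with the largest share of sequence found in annotated transcripts of genes elsewhere. With the longest principal transcript, Ndufb2 took the place of Ndufb4 among the 2 lowest, and 0.0% of the windows of its chosen transcript occur elsewhere. Sequence outside annotated transcripts was not searched. Of the 75-base windows of the Ndufb4 transcript (the read length), 35.2% also occur in Gm16056 or Ndufb4c, and 27.6% of those of Ndufab1 occur in Gm4459 or Ndufab1-ps. Ndufs3 shares 27.1% with Gm12251 and Ndufa12 shares 22.0% with Gm15920. Ndufb6 overlaps Smim27 over 31.3% of its windows, and Ndufa13 overlaps Tssk6 over 25.6%. The sources used here do not give how such reads were counted or whether strand was used, so the values of these genes are uncertain. Among the 20 subunits with no window shared with another gene's annotated transcript, the median log2 fold change was 0.052 in brown fat and -0.0028 in quadriceps, a choice made after seeing the data.

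The promoters of the members were searched for the motifs of factors known to act on respiratory genes. RefSeq promoters (GRCm38.p6, 250 bases before to 50 after the start) were found for 38 of the 44 members and for 13461 genes of the tables, and both strands were searched. The NRF1 motif, GCGCA, any base, then GCGC, was in 8 of 38 member promoters (21.1%), against 8.89% of all promoters. The motif of the estrogen-related receptors, partners of PGC-1alpha, AAGGTCA, was in 2 of 38 (5.26%), against 4.33%, and that of GABP and other ETS factors, CCGGAAG, in 5 of 38 (13.2%), against 15.5%. The YY1 motif AAGATGGC was in 7 of 38 (18.4%), against 4.20% of all. A match describes letters only, not a bound site.

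The sequences shown are those of members with extreme values above, and the capitals mark the motif. In Ndufa3, the lowest subunit estimate in quadriceps, in Ndufa9 and in Ndufb8, the highest subunit level per kb in brown fat, the YY1 letters lie after the transcription start, on the gene's own strand, and their ATG is the annotated start codon.
Ndufa3: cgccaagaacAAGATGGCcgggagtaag
Ndufa9: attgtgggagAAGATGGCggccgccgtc
Ndufb8: ggagaaggtgAAGATGGCtgcc
They lie on GRCm38 at chr7:3617385-3617412 (plus strand), chr6:126849098-126849125 (minus) and chr19:44555393-44555414 (minus). The same held in all 7 members with the motif (Ndufa3, Ndufa9, Ndufb8, Ndufc1, Ndufs4, Ndufs6 and Ndufs7), where it began 23 to 39 bases after the start. Over all genes with the motif, the ATG was the annotated start codon in 159 of 565 (28.1%). The 565 include 277 genes with a match before the start, and matches on the other strand were also taken. They are thus a set unlike the 7 members, and the shares are not directly comparable. With only the 250 bases before the start, 0 of 38 members held the motif, against 2.06% of all promoters.

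Ndufb4 was the second lowest subunit per kb by the transcript chosen. It is the member that held both the NRF1 motif, at 3 places, and the motif of the estrogen-related receptors. Both sequences below lie within 100 bases before its start.
Ndufb4 NRF1: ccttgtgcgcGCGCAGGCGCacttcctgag
Ndufb4 receptor: cctgagcctgAAGGTCAgactcgagag
They lie at chr16:37654428-37654457 and chr16:37654407-37654433 on GRCm38, minus strand, and share their flanking bases. Its log2 fold change was 0.056 ± 0.12 in brown fat and -0.054 ± 0.11 in quadriceps in the authors' deposited tables.

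The factors themselves did not pass the test either. Of 11 regulators of the respiratory chain, 8 were above 0 in brown fat and 7 in quadriceps, with 0 at an adjusted p under 0.05. Ppargc1b, the paralogue of Ppargc1a, had an unadjusted p under 0.05 in quadriceps, where the authors' deposited table gave 0.28 ± 0.13, a p of 0.0370 and 1.00 after adjustment. In brown fat it had 0.14 ± 0.11. Nrf1 had -0.12 ± 0.11 in brown fat and -0.060 ± 0.11 in quadriceps, and Esrra, an estrogen-related receptor, had 0.096 ± 0.11 in brown fat and 0.12 ± 0.13 in quadriceps in the authors' deposited tables.

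The other respiratory complexes, a list of 41 nuclear genes of complexes II to V, also had no gene past the test. In brown fat 33 were above 0 and 8 below, with a median of 0.031, and in quadriceps 29 were above and 12 below, with a median of 0.025. At an unadjusted p under 0.05 there were 0 in each tissue. The smallest p in brown fat was that of Uqcrc1, a core protein of complex III, with 0.11 ± 0.098 and a p of 0.251 in the authors' deposited table. In quadriceps it was that of Atp5e, the epsilon subunit of ATP synthase, with 0.17 ± 0.11 and a p of 0.128.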

How the data were processed

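RNA of quadriceps and brown fat was read from one end with stranded mRNA libraries, per the labels' protocols, and the design gives 4 mice per genotype. Nothing in the labels ties a muscle to a brown fat library of the same animal. The submitters' processing notes name STAR 2.5.1b, DESeq2 1.10.1 and the build mm9, with no role or order. What counted the reads, on which annotation and with which strand setting, is not given in the sources used here. Each tissue has a table of the authors' comparison between genotypes. Values of single libraries were not analysed here.

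Per the file headers, the mean normalized count of each gene, treated as a signal, is the authors' mean over the 8 libraries of a tissue. The log2 fold changes were deposited by the authors with their standard errors, and they behave as shrunken values. The deposited Wald statistic, a score, is the fold change over its standard error. The deposited p-value is two-sided, and the adjusted p is Benjamini-Hochberg. In brown fat 9272 of 17973 genes tested have an adjusted p, and all 44 members do. The brown fat sign was turned, since that table names wild type first.

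From these, 95% intervals were computed as normal intervals. The tissue difference used the root of the sum of both squared errors, a two-sided normal p and Benjamini-Hochberg over 16844 genes, and it treats the tissues as independent. Lengths and shared 75-base windows come from GENCODE vM21 transcripts (GRCm38), for which the shortest principal transcript was used, and its coordinates are not those of mm9. Levels per kb use that transcript's length, a choice made after seeing the data in place of the coding length first planned, and coding length is given as an alternative. Promoters come from RefSeq (GRCm38.p6). A lowess trend with a fraction of 0.3 was removed as an alternative. Python 3.11.15, pandas 2.3.3, scipy 1.17.1 and statsmodels 0.14.6 were used, and the procedures were tested on simulated data.

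All members may be named. Those described singly are every assembly factor, the 4 subunits of smallest p, the extreme fold changes and the extreme levels per tissue, and other members are examples of their class. Other lists give up to 4 genes of smallest p, with Ppargc1a, Ucp1, Acta1 and Ndufaf8 added for their role. The members, the lists and the tests were chosen with earlier results of these data known. Of the 44 members, 1 is counted in the summaries but not reported singly or drawn here.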

Additional observations from a re-analysis of the deposited data

How the results depend on the processing

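No paired analysis was possible because the tables hold no values per library, and for the same reason no library could be left out. The counts of members past a threshold were 0 under every alternative run for them: an adjusted p under 0.1, an unadjusted p under 0.01, a mean normalized count of at least 50, and, in brown fat, adjustment over every gene with a p-value. All of these could give nothing but 0, so they add no support. An adjusted p is never below its unadjusted p, and the smallest member p in brown fat was 0.243 (Wald test). The smallest member p (Wald test) was 0.127, the smallest adjusted p 0.9998 and the lowest member mean 50.04, all in quadriceps. The difference between tissues also gave 0 members with the brown fat sign as deposited. There the smallest member p (two-sided normal test) was 0.149 and belonged to Ndufc2 in place of Ndufb3. Keeping to the 9275 genes whose mean reached 50 in both tables gave 0 as well. That limit left the smallest member p at 0.175, so it could give nothing but 0 and adds no support. The brown fat sign as deposited turns the brown fat medians to -0.049 for subunits and -0.029 for assembly factors. The subunit median in quadriceps was 0.012, and ran from -0.0028, below 0, over subunits with no shared window, to 0.025 with the trend removed. Levels per kb depended on the length used. Assembly factors had 5.09% of the subunit median by coding length in brown fat, in place of 5.56%, and 6.81% in quadriceps, in place of 9.41%. The subunits below the highest assembly factor numbered 2 in brown fat, in place of 1, by coding length or longest transcript, and 4 in quadriceps, in place of 2, by coding length. The share of member promoters with the YY1 motif was 0.0% with only the bases before the start, in place of 18.4%, since all 7 matches lie after it. At an unadjusted p of 0.05 the member of smallest standard error needed a log2 fold change of 0.17 in brown fat and 0.15 in quadriceps.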
